A study of Mus musculus with 8 samples.

Results

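The 8 genes described here encode transcription factors known for their part in the hepatocyte program: the forkhead factors Foxa1, Foxa2 and Foxa3, the nuclear receptor Hnf4a, the homeodomain factors Onecut1 and Prox1, and the leucine zipper factors Cebpa and Cebpb. They were named as a set, and the choice was made with earlier results of these data known. Each was read from probe sets of the Affymetrix mouse gene array MoGene 2.0 ST to which the platform annotation gives that symbol and no other. Each of the 8 had 1 such probe set, and each exceeded the filter on low values on 8 of 8 arrays. They are 8 of the 13845 genes tested. The material was RNA of primary hepatocytes from male C57Bl6J mice, on 8 arrays in 4 groups of 2. The groups were 100 nM glucagon with 2 µM GW4064 (the combination), 100 nM glucagon alone, 2 µM GW4064 alone, and DMSO, each for 6 h, and the medium of all 4 groups, DMSO included, held 100 nM dexamethasone, a synthetic glucocorticoid. The 2 arrays of a group come from 2 experiments, each done on the pooled cells of 3 mice, so mice were not measured singly and n = 2 counts pools. Glucagon signals fasting to the liver through cyclic AMP, GW4064 is a synthetic agonist of the bile acid receptor FXR, and the study's title places FXR, protein kinase A and FOXA2 together in the control of glucose production during fasting.

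FOXA proteins are called pioneer factors because they bind DNA in closed chromatin and open it for others. In liver they share enhancers with HNF4A, HNF6 (the product of Onecut1) and the C/EBP factors, and these factors bind at each other's genes, so that the set is often described as a network that keeps hepatocyte identity. In mice FOXA2 is also known for a role in the fasting liver, where it acts on genes of fatty acid oxidation, and C/EBP factors for a role in gluconeogenic gene expression.

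Hepatocyte markers were present on every array: 10 of 10 listed genes were measured, and Alb, the albumin gene, had log2 signals of 12.97 to 13.11, while Ass1, of the urea cycle, had 3.32 to 4.76. For other liver cells, 3 of 8 cholangiocyte, 7 of 9 endothelial, 8 of 8 macrophage and 4 of 8 stellate cell and fibroblast markers were measured. Some of these, named after their values were seen, were above the filter level on every array: the macrophage markers Cd68 (median log2 signal 10.32) and Cd14 (8.36), the endothelial markers Lyve1 (6.98) and Cdh5 (6.54), the cholangiocyte marker Sox9 (6.13), and the stellate cell and fibroblast markers Reln (5.66) and Dcn (5.01). By contrast Krt19, Adgre1, Clec4f, Csf1r, Ptprc, the endothelial marker Flt4 and the stellate cell marker Pdgfrb had median log2 signals of 3.11 to 3.18, below or within the range of 3.13 to 3.27 of the arrays' filter levels. The macrophage marker Lyz2 (2.84) lay below that range, and the endothelial markers Kdr (3.36) and Pdpn (3.47) just above it. Of the stellate cell and fibroblast list, Des, Col1a1, Col1a2 and Lrat did not pass the filter. Across the tested genes 7 arrays correlated with each other at 0.976 to 0.997. The GW4064 array of experiment 2 correlated with these 7 at 0.975 to 0.985 and stood apart. Results that rest on it are therefore given with and without it, except the correlations between genes, which include it. Values are log2 signals as deposited, differences are on the log2 scale, and a gene is called at an adjusted p below 0.05.

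The stretches before the transcription start sites of the 4 members on which the results turn (Foxa1, Foxa2, Foxa3 and Prox1) are shown so that their motif content can be set beside their responses. They are the 250 bases before the most upstream RefSeq start in GRCm38.p6, printed 5′ to 3′ on the strand of the gene, with motif matches in capitals. The Foxa1 stretch is chr12:57546112-57546361, minus strand, with a GC content of 62.0%. The Foxa2 stretch is chr2:148046970-148047219, minus strand, with 50.8%, and belongs to 1 of 3 annotated starts. The Foxa3 stretch is chr7:19023540-19023789, minus strand, with 68.8%. The Prox1 stretch is chr1:190170828-190171077, minus strand, with 64.8%, and belongs to 1 of 2 annotated starts. The median over 27025 genes was 52.0%.
Foxa1: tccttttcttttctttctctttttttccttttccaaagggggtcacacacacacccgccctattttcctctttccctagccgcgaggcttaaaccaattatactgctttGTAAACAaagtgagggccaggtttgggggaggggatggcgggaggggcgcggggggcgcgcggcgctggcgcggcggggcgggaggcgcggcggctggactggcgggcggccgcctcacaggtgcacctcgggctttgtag
Foxa2: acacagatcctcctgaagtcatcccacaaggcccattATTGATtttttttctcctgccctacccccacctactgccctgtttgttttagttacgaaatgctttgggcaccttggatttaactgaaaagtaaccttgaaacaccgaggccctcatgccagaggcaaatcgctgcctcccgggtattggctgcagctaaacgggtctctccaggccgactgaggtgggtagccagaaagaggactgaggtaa
Foxa3: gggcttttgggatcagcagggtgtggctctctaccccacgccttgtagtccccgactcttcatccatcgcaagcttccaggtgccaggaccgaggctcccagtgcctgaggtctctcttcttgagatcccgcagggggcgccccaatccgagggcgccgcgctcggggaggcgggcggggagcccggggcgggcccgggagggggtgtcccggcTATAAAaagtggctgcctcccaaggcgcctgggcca
Prox1: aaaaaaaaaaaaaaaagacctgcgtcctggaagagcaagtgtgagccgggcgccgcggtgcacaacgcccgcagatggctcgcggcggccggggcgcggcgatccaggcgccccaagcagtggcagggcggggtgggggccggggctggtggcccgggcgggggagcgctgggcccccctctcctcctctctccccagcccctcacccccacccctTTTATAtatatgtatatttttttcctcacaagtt

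In the Foxa1 stretch the capitals mark the FOXA core TGTTTAC, which lies on the other strand at positions -141 to -135 before the start. This motif was held by 3.06% of 27025 such stretches, and Foxa1 was the only member with it. In the Foxa2 stretch they mark the HNF6 core ATTGAT at positions -213 to -208, a motif found in 6.95% of all stretches and also in that of Hnf4a. In the Foxa3 stretch they mark a TATA box, searched as TATAAA, at positions -36 to -31, and in the Prox1 stretch the same letters on the other strand at positions -34 to -29. TATAAA was held by 13.0% of all stretches, and among the members by Foxa3, Prox1 and Cebpa.

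The full cyclic AMP response element TGACGTCA was in none of the 8 members' stretches and in 1.6% of all stretches. Its TGACG core was in 2 of 8 members, 3 times in Cebpb and 1 time in Onecut1, and in 17.8% of all stretches. TTGCNNAA for C/EBP factors (9.55% of all), TGTTTGC for FOXA factors (4.31%), CAAAGTCCA for HNF4 (0.377%), and the motifs named HNF1 and FXR inverted repeat 1 (0.0074% each) were in none of the 8. This count is over the most upstream start of each gene: at the second annotated Prox1 start the stretch holds TGTTTGC, and at the third Foxa2 start it holds TATAAA on the other strand. All motifs were searched on both strands, and the TGACG core also counts inside the full element. These matches are letters in a window and not measured binding.

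The main comparison set the 4 arrays with glucagon (the combination and glucagon alone) against the 4 without (GW4064 and DMSO). Prox1 rose, Foxa2 and Foxa1 were higher by a smaller amount, Foxa3 was lower, and the other 4 members moved by less. With the model of 1 mean per treatment, 1 of the 8 members, Prox1, was called (limma, Benjamini-Hochberg adjustment over 13845 genes), where 1.32% of all genes were. The members' median difference was 0.21, with 6 of 8 above zero, against a median of -0.00 over all genes tested. A member's values in the glucagon arrays did not overlap those of the others for 2 of 8 genes, Prox1 and Foxa2, against 13.0% of all genes.

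**Figure D1:**
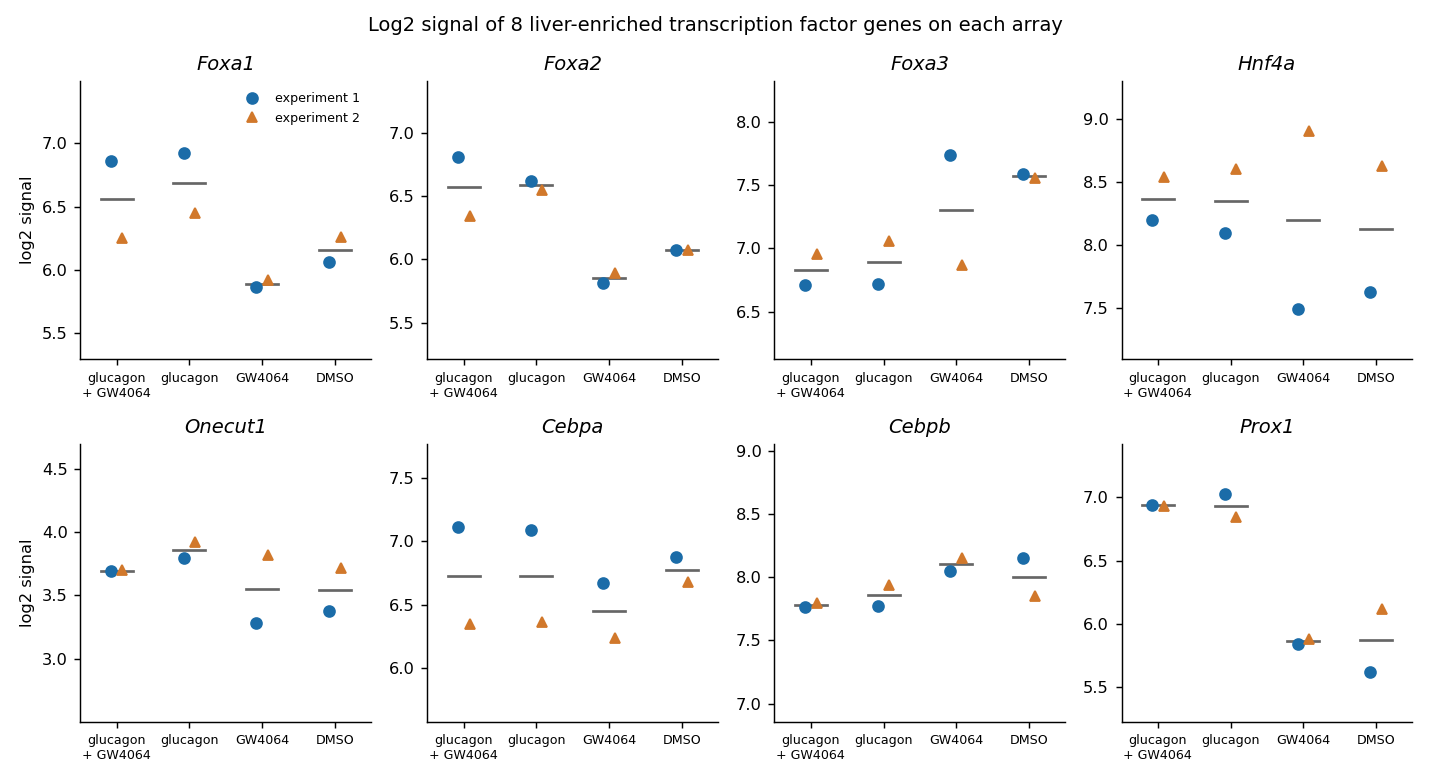
Log2 signal (vertical axis, a separate range per gene with equal span) of the 8 genes on each array, by treatment. Circles are experiment 1, triangles experiment 2 and bars the mean of 2. Prox1 and Foxa2 lie higher on all 4 glucagon arrays than on the other 4, while Hnf4a separates by experiment.

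Prox1 encodes a homeodomain protein known from mouse embryos for the outgrowth of hepatoblasts and from lymphatic endothelium, and as a corepressor of nuclear receptors including HNF4A. Its log2 signal was 6.94 and 6.93 with the combination and 7.03 and 6.84 with glucagon (experiments 1 and 2). With GW4064 it was 5.84 and 5.88, and with DMSO 5.62 and 6.12. All 4 glucagon values lay above all 4 others, and the combination and glucagon arrays differed by less than their spread. The means were 6.94 ± 0.01 with the combination, 6.94 ± 0.13 with glucagon, 5.86 ± 0.03 with GW4064 and 5.87 ± 0.35 with DMSO (SD, n = 2 each). The combination and glucagon did not differ beyond their spread, nor did GW4064 and DMSO.

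The difference between the glucagon arrays and the others was 1.07 ± 0.13 (SE), a 2.1-fold higher signal, with an adjusted p of 0.0159 by limma. Its 95% interval was 0.78 to 1.37. Among the 13845 genes Prox1 had the 91st highest difference and the 49th smallest p. With the experiment as a block the adjusted p was 0.00709, and it was 0.00959 when the GW4064 array of experiment 2 was also left out. The call rested on all 4 glucagon arrays being in the fit: without either glucagon or either combination array it was lost, while the difference stayed at 1.03 to 1.12. Each of these fits left 1 array in a group, and fewer genes were called over all genes as well.

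Over 2 arrays against 2, Prox1 differed by 1.07 for glucagon minus DMSO, 1.07 for the combination minus DMSO and 1.08 for the combination minus GW4064, each with an SE of 0.18. These 3 comparisons share arrays, the first 2 their DMSO arrays, so they are not separate evidence. None passed the test without the block (adjusted p 0.141, 0.157 and 0.107). With the block the combination minus GW4064 passed at 0.0485, and with the block and without the GW4064 array of experiment 2 glucagon minus DMSO (0.0313) and the combination minus DMSO (0.0342) passed while the combination minus GW4064 did not (0.0794).

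Because Prox1 also marks lymphatic endothelium, the endothelial list was read beside it. Its 7 measured genes had a mean log2 signal of 4.55 to 4.92 on glucagon arrays and 4.51 to 4.85 on the others. Of these 0 of 7 were called, where 1.32% of all genes were, so the count says little about them. Flt4 and Pdpn of this list lay at or just above the filter level. The hepatocyte list lay at 10.05 to 10.27 on glucagon arrays and 9.78 to 10.16 on the others, and 1 of its 10 genes, Tat, was called. The cholangiocyte list lay at 4.02 to 4.27 on glucagon arrays and 4.35 to 5.03 on the others, without overlap. Of all single genes, 13.0% did not overlap either. Of its 3 measured genes Sox9 differed by -1.32 (adjusted p 0.133 by limma) and Krt19 lay at the filter level. The third, Epcam, was above the filter level on every array (3.59 to 3.79). Epcam differed by -0.04 for glucagon minus DMSO and by 0.03 for the combination minus DMSO, so the list did not move as a set. Krt7 and Cftr of the same list did not pass the filter. The part of these markers in the members' results was not tested, and in RNA of whole cultures fewer cells of a type and less RNA per cell cannot be told apart.

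Foxa2 had log2 signals of 6.81 and 6.34 with the combination and 6.62 and 6.55 with glucagon. With GW4064 it had 5.81 and 5.89, and with DMSO 6.07 in each experiment. The 2 sets of 4 arrays did not overlap. The means were 6.57 ± 0.33 with the combination, 6.59 ± 0.05 with glucagon, 5.85 ± 0.06 with GW4064 and 6.07 ± 0.00 with DMSO (SD, n = 2 each). Glucagon was highest and GW4064 lowest, and glucagon and the combination did not differ beyond their spread.

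The Foxa2 difference between the glucagon arrays and the others was 0.62 ± 0.12 (SE), or 1.53-fold, with a 95% interval of 0.34 to 0.90. Its adjusted p was 0.0659 by limma without the block, which misses the threshold. With the experiment as a block it was 0.0293, where 5.76% of all genes passed and 2 of 8 members, Foxa2 and Prox1. Foxa2 had the 272nd highest difference of the 13845 genes. It was higher in all 4 pairs within an experiment: by 0.45 and 1.00 for the combination minus GW4064 (experiments 2 and 1), and by 0.48 and 0.55 for glucagon minus DMSO. Over 2 arrays against 2 it missed the threshold in each comparison, with and without the block (combination minus GW4064 0.72, adjusted p 0.236 and 0.0976 with the block; glucagon minus DMSO 0.51, adjusted p 0.557 and 0.228 with the block).

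Foxa1, the forkhead factor that shares many liver enhancers with FOXA2, had log2 signals of 6.86 and 6.25 with the combination and 6.93 and 6.45 with glucagon. With GW4064 it had 5.86 and 5.92, and with DMSO 6.06 and 6.26. The combination array of experiment 2 lay just under the DMSO array of the same experiment, so the sets of 4 overlapped. The means were 6.56 ± 0.43 with the combination, 6.69 ± 0.34 with glucagon, 5.89 ± 0.04 with GW4064 and 6.16 ± 0.14 with DMSO (SD, n = 2 each). Glucagon was again highest and GW4064 lowest, and the combination did not differ beyond its spread from either of its neighbours in that order, glucagon and DMSO. The difference was 0.60 ± 0.17 (SE), 1.51-fold, with an adjusted p of 0.172 by limma and 0.0727 with the block. The combination minus GW4064 gave 0.33 in experiment 2 and 1.00 in experiment 1, and glucagon minus DMSO gave 0.19 and 0.87, so both pairs were wider apart in experiment 1.

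Foxa3, whose loss in mice impairs the maintenance of blood glucose in a long fast, ran the other way. Its log2 signal was 6.71 and 6.95 with the combination and 6.72 and 7.06 with glucagon. With GW4064 it was 7.74 and 6.87, and with DMSO 7.59 and 7.56. The glucagon arrays lay below the DMSO arrays and the GW4064 array of experiment 1, but the GW4064 array of experiment 2 fell among them. The means were 6.83 ± 0.17 with the combination, 6.89 ± 0.24 with glucagon, 7.30 ± 0.62 with GW4064 and 7.57 ± 0.02 with DMSO (SD, n = 2 each). In this order from low to high no neighbours differed beyond their spread.

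The Foxa3 difference was -0.58 ± 0.20 (SE), 0.67-fold, with an adjusted p of 0.239 by limma and 0.152 with the block. It depended on the GW4064 array that stood apart: without it, and with the block, the difference was -0.84 with an adjusted p of 0.00663. In that fit 4 of 8 members were called, Foxa1 (0.69, adjusted p 0.0469), Foxa2 (0.68, adjusted p 0.0177), Foxa3 and Prox1, where 10.5% of all genes were. The 4 members that were called there kept their direction from the fit of all 8 arrays.

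**Figure D2:**
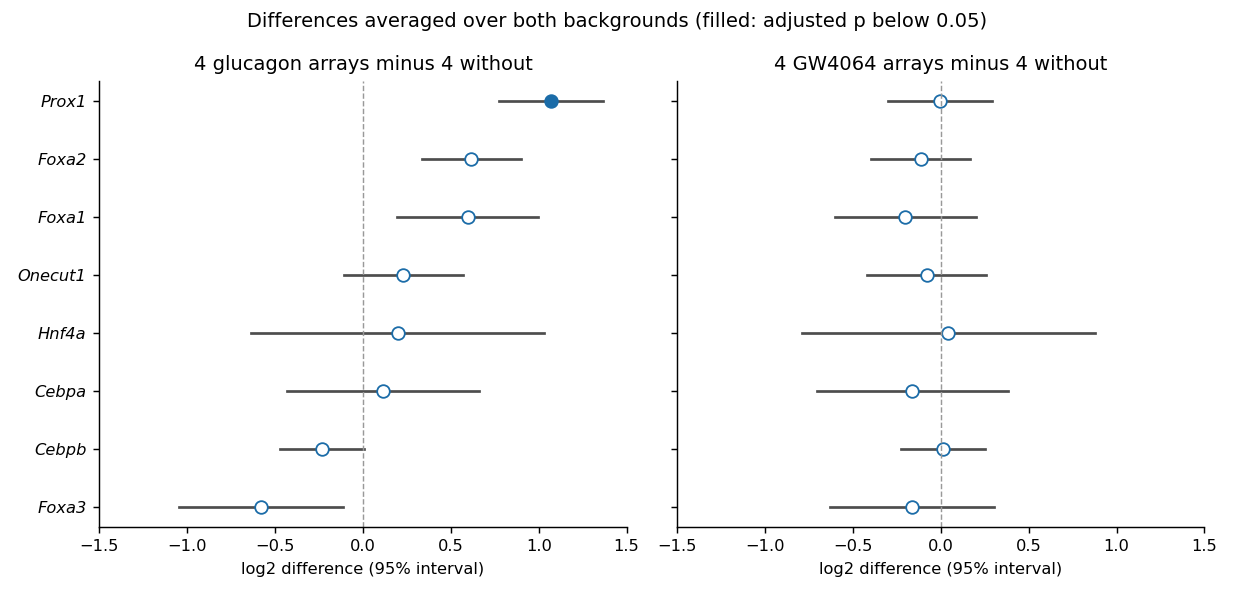
Log2 difference of each member (points) with its 95% interval (lines) from the fit with 1 mean per treatment. Left, 4 glucagon arrays minus 4 without, and right, 4 GW4064 arrays minus 4 without. Filled points have an adjusted p below 0.05, which only Prox1 at left (1.07) reaches.

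The remaining 4 members did not pass the test for glucagon in any of these 3 fits. Hnf4a, a nuclear receptor that acts on apolipoprotein, clotting factor and gluconeogenic genes, had log2 signals of 8.19 and 8.54 with the combination, 8.10 and 8.60 with glucagon, 7.49 and 8.90 with GW4064, and 7.63 and 8.62 with DMSO. Its glucagon difference was 0.20, and the arrays were ordered by experiment more than by treatment. The 95% interval was -0.64 to 1.03 without the block, and -0.23 to 0.62 with the experiment as a block. With the block and without the GW4064 array of experiment 2 the Hnf4a difference was 0.40. Onecut1 encodes HNF6, a cut homeodomain factor needed in mice for bile duct development, and its signals were close to the filter level: 3.69 and 3.70 with the combination, 3.80 and 3.92 with glucagon, 3.28 and 3.82 with GW4064, and 3.38 and 3.71 with DMSO. Its difference was 0.23 with a 95% interval of -0.11 to 0.57, and of -0.03 to 0.49 with the block. With the block and without the GW4064 array of experiment 2 the Onecut1 difference was 0.33.

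Cebpa, a factor of hepatocyte differentiation, had log2 signals of 7.11 and 6.35 with the combination, 7.09 and 6.37 with glucagon, 6.67 and 6.24 with GW4064, and 6.88 and 6.68 with DMSO. The difference was 0.11, with a 95% interval of -0.43 to 0.66, and of -0.16 to 0.39 with the block. Cebpb, a family member known for induction in the acute phase and by cyclic AMP, had 7.76 and 7.79 with the combination, 7.78 and 7.93 with glucagon, 8.05 and 8.15 with GW4064, and 8.15 and 7.85 with DMSO. Its difference was -0.23, with a 95% interval of -0.47 to 0.01 and an adjusted p of 0.355 by limma. For Hnf4a, Cebpa and Cebpb no neighbours in the order of the 4 treatment means differed by more than the SD of both, so the order cannot be read. For Onecut1 the same held except between glucagon (3.86 ± 0.08), the highest, and the combination (3.70 ± 0.00; SD, n = 2 each), and that difference, -0.16 for the combination minus glucagon, did not pass the test.

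Over 2 arrays against 2, the counts of members called were read against small backgrounds. Without the block, 0 of 8 members were called for glucagon minus DMSO (0.116% of all genes), the combination minus DMSO (0.123%) or the combination minus GW4064 (0.166%), and 3 of 8 had an unadjusted p under 0.05 in each, as did 6.70% of all genes in the first of these comparisons, 6.22% in the second and 10.5% in the third. With the block the counts were 0 (0.925% of all genes), 0 (0.737%) and 1 (1.06%), the last being Prox1. With the block and without the GW4064 array of experiment 2 they were 2 (3.16%), 2 (2.47%) and 1 (1.37%). In the first 2 of these comparisons the members were Prox1 and Foxa3 (Foxa3 adjusted p 0.0395 and 0.0359), and in the third Foxa3 alone (0.499-fold, adjusted p 0.0458), where the remaining GW4064 group is 1 array that is assumed to vary like the other groups.

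**Figure D3:**
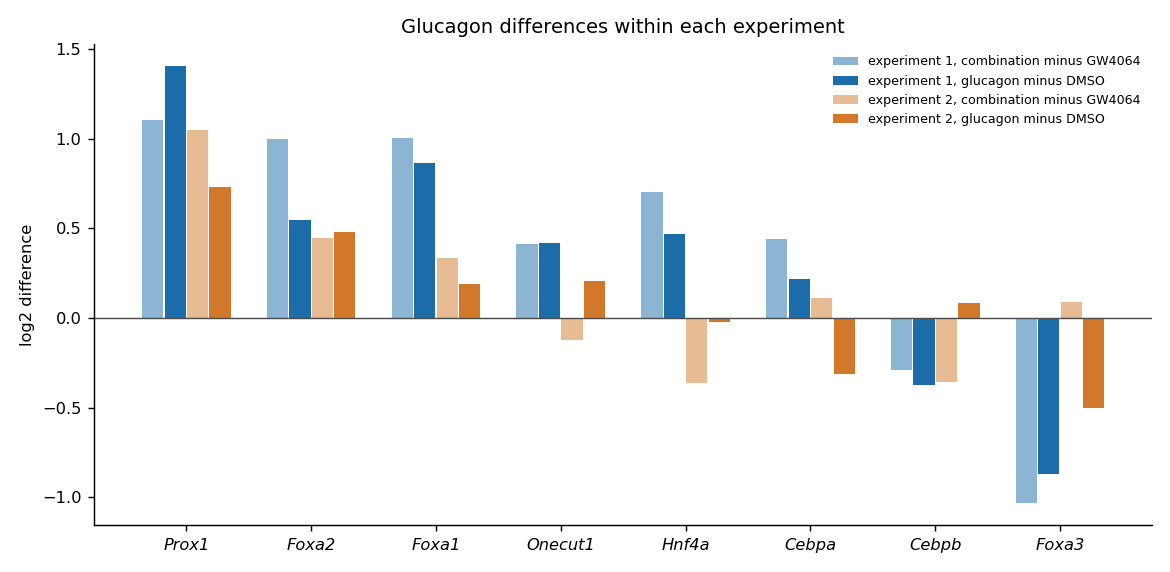
Log2 difference made by glucagon within each experiment (bars, vertical axis), for the combination minus GW4064 (pale) and glucagon minus DMSO (dark). Experiment 1 is blue and experiment 2 orange. All 4 bars are positive for Prox1 (0.73 to 1.41), Foxa2 (0.45 to 1.00) and Foxa1 (0.19 to 1.00), and Hnf4a has negative bars in experiment 2 and positive ones in experiment 1.

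The second question was whether the FXR agonist changed these genes, alone or on top of glucagon. No member was called for GW4064 minus DMSO, the combination minus glucagon, the 4 GW4064 arrays minus the 4 without, or the interaction, and 0% of all genes were called in each of these by limma without the block. At an unadjusted p under 0.05 there were 373 (2.69% of all genes), 90 (0.65%), 216 (1.56%) and 149 (1.08%) genes, none of them a member. With shares this small, the absence of any of 8 members says little about them. Over all genes the count for GW4064 minus DMSO depended on 1 array: 406 genes, none of them a member, were called when the GW4064 array of experiment 1 was left out and the array that stood apart was the whole GW4064 group. The values of the 4 GW4064 arrays overlapped those of the others for all 8 members, and 1.18% of all genes did not overlap. With the block 0 genes were called in each as well, and with the block and without the GW4064 array of experiment 2 the comparison of 4 with GW4064 against 4 without had 3 called genes, none of them a member.

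For Foxa2 the GW4064 difference was -0.22 against DMSO (95% interval -0.61 to 0.18) and -0.01 for the combination against glucagon (-0.41 to 0.38). For Prox1 it was -0.01 (-0.43 to 0.41) and 0.00 (-0.42 to 0.42). The interaction, the excess of the combination over the sum of the single differences, was 0.21 for Foxa2 (95% interval -0.35 to 0.77) and 0.01 for Prox1 (-0.58 to 0.60). These intervals do not show that GW4064 left the genes alike, since they still hold changes as large as the lower bound of the Foxa2 glucagon difference. With all arrays, Cebpa was the member furthest from zero for GW4064 minus DMSO (-0.32) and for the interaction (0.32). Onecut1 was furthest for the combination minus glucagon (-0.16) and Foxa1 for all GW4064 arrays (-0.20). With the block and without the GW4064 array of experiment 2, GW4064 minus DMSO was furthest from zero for Foxa1 (-0.45). It was -0.39 for Cebpa, -0.35 for Foxa2, -0.33 for Hnf4a (0.07 with all arrays), 0.02 for Prox1 and 0.04 for Cebpb. The interaction in that fit was 0.39 for Cebpa, 0.34 for Foxa2 and 0.34 for Hnf4a (-0.05 with all arrays). For Foxa3 the interaction was -0.32, against 0.21 with all arrays. Foxa3 had -0.27 for GW4064 minus DMSO, a value that turned to 0.26 without the GW4064 array of experiment 2 and with the block, and neither passed the test.

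The 2 cell pools differed for some members by more than the treatments did. Hnf4a was higher in experiment 2 than in experiment 1 at each treatment, by 0.35 with the combination, 0.51 with glucagon, 1.41 with GW4064 and 1.00 with DMSO. Its mean was 8.67 in experiment 2 and 7.85 in experiment 1, and its 4 arrays of experiment 2 lay above all 4 of experiment 1. Hnf4a was thus 1 of 8 members without overlap between the experiments, against 14.4% of all genes. Its mean difference of 0.81 was the 133rd highest of 13845, where all genes had a median of -0.02 and an SD of 0.27.

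Cebpa was lower in experiment 2 at each treatment, by 0.77 with the combination, 0.72 with glucagon, 0.44 with GW4064 and 0.20 with DMSO, and its means were 6.41 in experiment 2 and 6.94 in experiment 1. Onecut1 was higher in experiment 2, with a mean difference of 0.25. The FOXA genes, Cebpb and Prox1 had differences of both signs over the 4 treatments. With 1 pool of mice per experiment there is no test of these differences. Beside them, the mean log2 signal of the hepatocyte markers was 10.15 to 10.27 in experiment 2 and 9.78 to 10.06 in experiment 1. That of the endothelial markers was 4.51 to 4.57 in experiment 2 and 4.84 to 4.92 in experiment 1, and that of the stellate cell and fibroblast markers 4.72 to 4.96 in experiment 2 and 4.50 to 4.58 in experiment 1. The part of these markers in the differences was not tested.

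**Figure D4:**
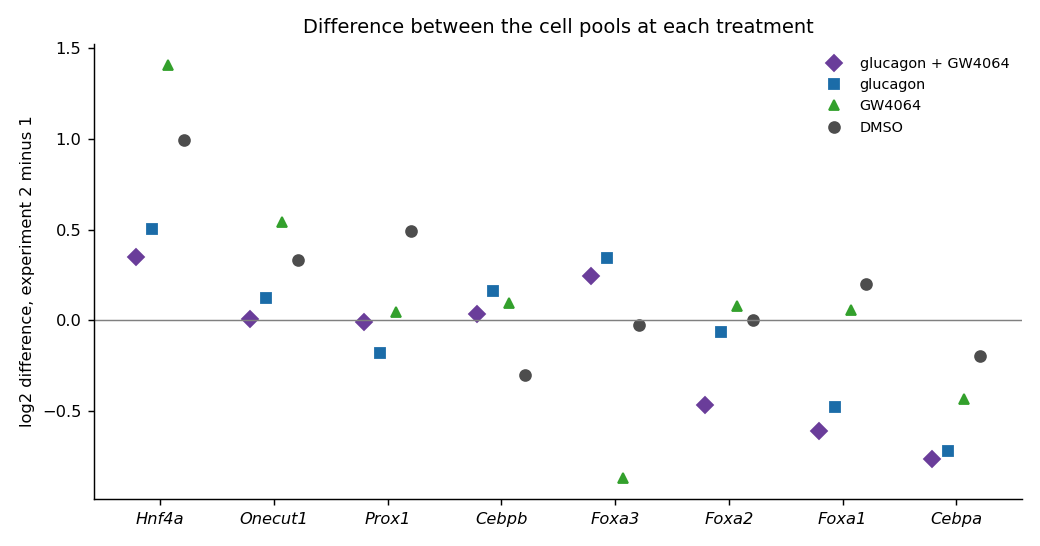
Log2 difference between experiment 2 and experiment 1 (vertical axis) for each gene at each treatment (diamond, combination; square, glucagon; triangle, GW4064; circle, DMSO). All 4 Hnf4a points lie above zero (0.35 to 1.41) and all 4 Cebpa points below it (-0.77 to -0.20).

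Other liver-enriched transcription factors were read in the same comparison of 4 glucagon arrays with 4 others. Of 26 listed, 23 were measured, 1 rose and 1 fell, and the list's median was 0.09. In this comparison 1.32% of all genes were called, and 5.76% with the block, and the median over all genes was -0.00. Klf15, a zinc finger factor of amino acid catabolism and gluconeogenesis, rose by 0.91 ± 0.14 (SE, adjusted p 0.0349), and Cebpg, a C/EBP family member that dimerises with the others, fell by 0.60 (SE 0.10, adjusted p 0.0362). Nr1i2, which encodes the xenobiotic receptor PXR, had 0.84 (adjusted p 0.144 by limma). It was not higher with glucagon only: it had 0.80 for GW4064 minus DMSO and 1.16 for the combination minus glucagon, neither called. Nr1h4, which encodes FXR, the receptor of GW4064, had -0.56 (adjusted p 0.146 by limma). With the block Nfil3, a leucine zipper repressor, also passed (-0.45, adjusted p 0.0486, against 0.235 without it), and it is named because it changed its call.

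Among cofactors and signal-dependent partners, 13 of 14 were measured, 1 rose and 0 fell, and the median was 0.03. The share called over all genes was 1.32%. Ppargc1a, the coactivator that works with HNF4A and FOXO1 on gluconeogenic genes, rose by 3.46 ± 0.30 (SE), 11.0-fold, with an adjusted p of 0.00589 by limma. It also rose over 2 arrays against 2 in the combination against DMSO (3.63, adjusted p 0.0494) and against GW4064 (3.76, adjusted p 0.0358). For glucagon against DMSO it had 3.16, with an adjusted p of 0.0620 without the block and 0.000774 with it. The next in order of p were Crem (0.29) and Creb1 (-0.20), factors that bind cyclic AMP response elements, and the coactivator Ncoa1 (0.16), and none of these 3 passed.

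Of the genes for serum proteins and amino acid or gluconeogenic enzymes that these factors are known to regulate, 21 of 24 were measured, 3 rose and 0 fell, and the median was 0.06. The 3 were G6pc (4.08, adjusted p 0.000131) and Pck1 (5.15, adjusted p 0.000571), which encode enzymes of gluconeogenesis, and Tat, tyrosine aminotransferase (0.83, adjusted p 0.0465). Cps1, which makes carbamoyl phosphate for the urea cycle, had 0.46 with an adjusted p of 0.0624, and 0.0240 with the block. Of the fasting lipid genes linked to FOXA2, 9 of 12 were measured, 1 rose and 0 fell, and the median was 0.16. Beside both lists, 1.32% of all genes were called, and 5.76% with the block. Cpt1a, the carnitine palmitoyltransferase of fatty acid oxidation, rose by 1.83 ± 0.17 (SE), 3.56-fold (adjusted p 0.00612). Over 2 arrays against 2 it passed with the block (adjusted p 0.00318 to 0.00425 in the 3 comparisons) and not without it. Ehhadh, of peroxisomal fatty acid oxidation, had 0.57 (adjusted p 0.121, and 0.0272 with the block), Mttp, which loads lipid on lipoproteins, 0.18, and Acadm, of mitochondrial oxidation, 0.16. No gene of these 4 lists was called by limma for GW4064 minus DMSO or for the 4 GW4064 arrays minus the 4 without. In both comparisons 0 of all 13845 genes were called, so this says nothing particular about the lists.

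**Figure D5:**
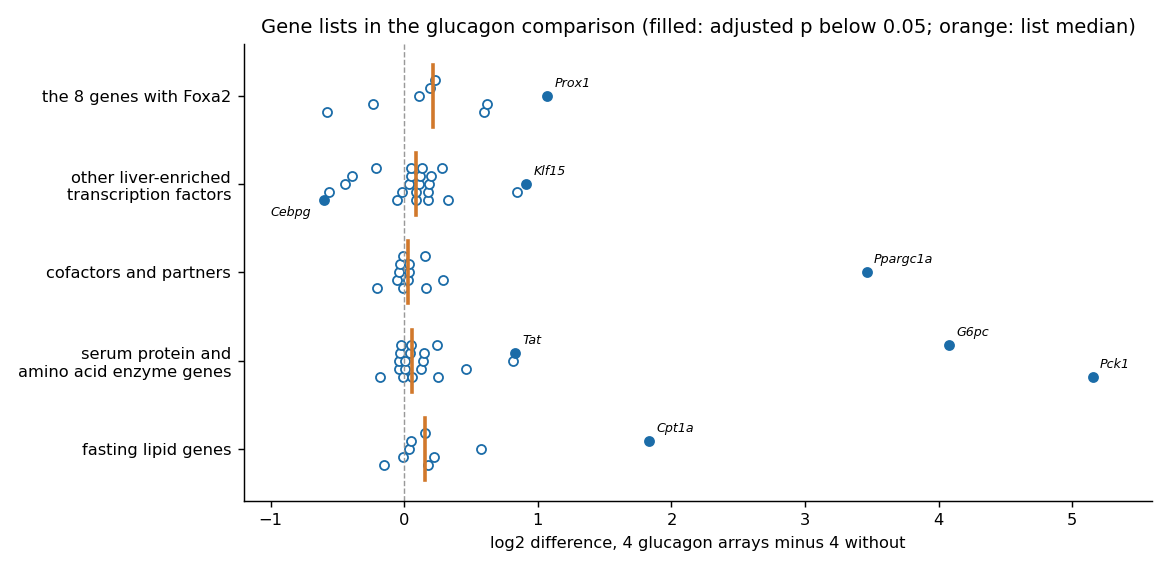
Log2 difference of 4 glucagon arrays minus 4 without (horizontal axis) for the measured genes of 5 lists, 1 circle per gene, spread vertically to separate them. Filled circles have an adjusted p below 0.05 and are named, and the upright bar is the list's median (0.21 for the 8 genes, 0.03 to 0.16 for the other 4 lists).

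The genes whose pattern over the 8 arrays was most like each member's were found by Pearson's r after the mean of its experiment was taken from each value, among 3472 genes with an SD of at least 0.2. These r describe 8 arrays that share cell pools, and carry no test. Nearest to Prox1 were Ehhadh (0.996) and Echdc2 (0.995), to Foxa2 Ppp1r3b (0.987), a glycogen-targeting subunit of protein phosphatase 1, and Slc35b4 (0.982), and to Foxa1 Gldc (0.996), the glycine decarboxylase, and Tbc1d8b (0.995). Their glucagon differences were 0.57 for Ehhadh, 0.79 for Echdc2, 0.63 for Ppp1r3b, 0.40 for Slc35b4, 0.39 for Gldc and 0.46 for Tbc1d8b. Nearest to Foxa3 were Phlpp2 (0.995) and Rnf19a (0.993), with differences of -0.33 and -0.27. At such an r the sign of the difference follows from the choice of genes, here and for those nearest to Prox1, Foxa2 and Foxa1. That sign is therefore no separate evidence of a glucagon response. The r are given only with the GW4064 array that stood apart, on which the Foxa3 difference depended. For Hnf4a the nearest were Fga (0.984), the fibrinogen alpha chain gene, and Rnf125 (0.959), for Onecut1 Ubqln2 (0.974) and Csrp2 (0.968), for Cebpa Dcaf8 (0.963) and Eola1 (0.945), and for Cebpb Zfp389 (0.976) and Nat10 (0.960).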

How the data were processed

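Total RNA of 8 samples was hybridised to MoGene 2.0 ST arrays after labelling of 300 ng, with 2 technical replicates pooled per sample, per the labels' protocols. The log2 signal values were used as the authors deposited them, with GeneSpring named as their software in the series' design text. Its version, background correction and normalization: not given in the sources used here. The log2 scale was read from the range of the values, with array medians of 3.42 to 3.57. Precision is limited by having 8 arrays.

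Of 41345 probe sets, the platform annotation gave 1 symbol to 23521, several to 1814 and none to 16010, and those with several or none were not tested. A probe set was kept if 2 or more arrays had it above their own 40th percentile, and the highest mean represented a gene, which left 13845 genes. Treatments were compared in R 4.3.3 by limma 3.58.1, with 1 mean per treatment over 8 arrays (4 residual and 3.06 prior degrees of freedom), 8 contrasts, two-sided p and Benjamini-Hochberg adjustment over all genes in each. The code was tested on simulated data. Promoter sequences came from RefSeq, GRCm38.p6, where 8 of 8 members were found.

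Per the labels each experiment divided 1 pool of cells over the 4 treatments, so arrays of an experiment are paired. Deviations from group means correlated at 0.350 to 0.620 for the 6 pairs of treatments. A fit that blocks on the experiment, leaving 3 residual degrees of freedom, is given where it changes a call, and for some members where it does not.

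The members, lists and alternatives were chosen with earlier results of these data known. Beside the members, the text names up to 4 measured genes of each list with the smallest p for glucagon, any gene called, and the 2 genes most like each member, with predicted genes left out. No measured column was left unused.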

Additional observations from a re-analysis of the deposited data

Results flagged for a closer look

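Hnf4a differed between the experiments in the direction of its glucagon difference. In experiment 2 it was -0.36 for the combination minus GW4064 and -0.0215 for glucagon minus DMSO, and in experiment 1 it was 0.70 and 0.47 (log2). Each experiment is 1 pool of cells with 1 array per treatment, so the difference between the experiments was not tested, and the experiment 2 value of -0.36 uses the GW4064 array that stood apart. No other member moved one way in both pairs of 1 experiment and the opposite way in both pairs of the other.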

How the results depend on the processing

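The results were recomputed under 18 alternative settings: other scalings and filters, another rule for several probe sets, limma's trend option, the experiment as a block, leaving out each array and, only for the 5 comparisons of 2 groups, a fit of those groups alone. Onecut1 did not pass the stricter filter and has no value there. For the comparison of 4 glucagon arrays with 4 others, 1 member was called, against 2 with the replicate block, 2 with the experiment as a random block, 4 with the block and without the GW4064 array of experiment 2, and 0 to 2 when 1 array was left out. Without the block Prox1 was lost without the glucagon array of experiment 1 (adjusted p 0.106) or 2 (0.0701), or the combination array of experiment 1 (0.101) or 2 (0.0960), with a difference of 0.95 to 1.20 over all single arrays left out, and Foxa3 was gained without the GW4064 array of experiment 2 (-0.80, adjusted p 0.0340). For the combination minus GW4064, 0 members became 1 with the block, 1 with the random block, 1 with the block and without that array, and 0 to 1 with 1 array left out. For glucagon minus DMSO and for the combination minus DMSO, 0 became 2 each with the block and without that array. The block changed no other member's call. Of 1120 values of single members compared, 1010 kept their direction and side of the threshold, 4 lost and 14 gained a call, 0 reversed with a call, and 92 changed sign with no call in either fit, all of a main size up to 0.32. Much of this agreement was fixed in advance. Each member had 1 probe set, and the filters, the trend option and the blocks with all arrays kept cannot move a difference. Such settings could change only the p, so the count of 1010 is no measure of robustness. The sign changes in the glucagon comparison were 4, in Hnf4a and Cebpa, when an array of experiment 1 was left out. Over all genes the count called for glucagon was 183 and ran from 25 to 1454 over the settings. For GW4064 minus DMSO it was 0, and 406 without the GW4064 array of experiment 1. Giving all arrays a common median moved the median of all genes to 0.07 from -0.03 for GW4064 minus DMSO and to -0.09 from 0.03 for the interaction, and no member was called. The cause of these changes was not tested. With 2 arrays per group, signals near the filter level, as for Onecut1, limit what can be read.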
